A study of Mus musculus with 18 samples.

Results

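Splenic pan B cells of C57BL/6 mice were compared after 4 h with BAFF 3mer and after the same time without BAFF, over both pretreatments. The comparison takes 12 of the 18 libraries of the series by their labels, 6 with BAFF 3mer and 6 without BAFF. For 1 h beforehand the cells were kept with mBaffR-mFc or a control antibody at 1000 ng/ml, and BAFF 3mer or BAFF 60mer then followed at 100 ng/ml, or no BAFF. The groups, with 3 libraries each, are Ab_3mer (control antibody, then BAFF 3mer), BRFc_3mer (mBaffR-mFc, then BAFF 3mer), Ab (control antibody alone) and BRFc (mBaffR-mFc alone). Ab_60mer and BRFc_60mer, which received BAFF 60mer, serve for comparison at the same dose and time. All groups, those without BAFF included, went through a pretreatment, so none shows untouched B cells. mBaffR-mFc is named as a fusion of the mouse BAFF receptor with a mouse Fc part. The labels give no age, sex, allele or pooling of the mice, do not say whether the libraries of a group came from separate animals, and do not name the species of the BAFF. The p-values below therefore measure only the spread between these libraries, which may be technical.

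BAFF (Tnfsf13b) is a cytokine of the TNF family that keeps mature B cells alive. It acts through the receptors BR3 (Tnfrsf13c), TACI (Tnfrsf13b) and BCMA (Tnfrsf17). BR3 releases the kinase NIK (Map3k14) from degradation driven by Traf3, and NIK then starts the processing of the p100 protein of Nfkb2 into the active partner of Relb, the noncanonical NF-kB pathway. BAFF circulates as a trimer, and trimers can assemble into a 60mer.

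Levels are given in FPKM, in which the fragments of a gene are divided by its length and by the total of the library. Library totals, in M (mega) fragments, were recovered from the steps between low values and ran from 17.9 to 21.7 M fragments with BAFF 3mer and from 15.7 to 25.4 M without BAFF. Of the B cell markers, Cd79a, a signalling chain of the B cell receptor, averaged 883 ± 44.3 FPKM with BAFF 3mer and 870.2 ± 47.8 FPKM without BAFF (SD, n = 6 each), and Pax5, the transcription factor of B cell identity, 196 ± 8.83 FPKM with BAFF 3mer and 202 ± 15.7 FPKM without BAFF, so markers of the labelled cell type were present. Of the other cell types, 8 markers of myeloid cells summed to 219 to 237 FPKM with BAFF 3mer and 213 to 232 FPKM without BAFF. The 6 markers of NK cells summed to 119 to 143 FPKM with BAFF 3mer and 126 to 144 FPKM without BAFF. For 8 markers of T cells the sums were 4.59 to 5.99 FPKM with BAFF 3mer and 4.36 to 5.70 FPKM without BAFF. No tested marker of these cell types or of the others passed the test of BAFF 3mer against no BAFF. Of the 8 T cell markers only 3 were tested, and the sums were not tested. In bulk RNA, fewer cells of a type and less RNA per cell cannot be told apart.

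Libraries within one group stood apart in transcripts of connective tissue. The sum of Col1a1, Col1a2, Col3a1, Sparc, Dcn and Bgn was 10.01 and 12.9 FPKM in replicates 1 and 2 of Ab_3mer, against 0 to 0.13 FPKM in the other 4 libraries with BAFF 3mer. It lay between 0 and 0.057 FPKM in the 6 libraries without BAFF and between 8.14 and 10.7 FPKM in the 6 libraries with BAFF 60mer. For Myc and for the counts of passing genes, values without these 2 Ab_3mer libraries are given too. Other pooled differences include them unless stated.

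BAFF 3mer left the B cell transcriptome within a narrow band of the cells without BAFF. Of 11646 genes that averaged 1 FPKM or more, 0 passed in either direction (0%) in limma's moderated test at a Benjamini-Hochberg adjusted p under 0.05, and 0 passed when limma's voom was applied to the recovered fragments. At an unadjusted p under 0.05 there were 524 genes (4.5%), where 582.3 would be reached with no effect in any gene. The smallest adjusted p was 0.0904, for the D segment Ighd2-6 described last, and the next was 0.958. The median difference, on the log2(FPKM + 1) scale used for all differences below, was -0.01, and its percentiles 1 and 99 were -0.22 and 0.24. It was positive in 4847 genes (41.6%).

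The libraries limited how large an unseen change could be. The 95% confidence interval of the BAFF 3mer difference lay within 1.5-fold either way, a log2 difference of 0.58, for 11386 genes (97.8%) and within 1.25-fold for 10241 genes (87.9%). These folds are of FPKM + 1, so the bound is wider in FPKM for low genes, and with a pseudocount of 0.1 in place of 1 the interval lay within 1.5-fold for 10898 genes. The share within 1.5-fold was 92.4% of the 2693 genes at 1 to 5 FPKM, 98.9% of the 3547 at 5 to 20 FPKM, and 99.7% of the 4287 at 20 to 100 FPKM and of the 1119 at 100 FPKM and over. Point estimates went beyond 1.5-fold in 15 genes, 9 of them at 1 to 5 FPKM and 6 at 5 to 20 FPKM. These bounds average both pretreatments, and within a single pretreatment they were wider. Under control antibody 10934 genes (93.9%) lay within 1.5-fold and 8414 (72.2%) within 1.25-fold. Under mBaffR-mFc 10972 genes (94.2%) lay within 1.5-fold and 8625 (74.1%) within 1.25-fold. For comparison, BAFF 60mer against no BAFF, which shares the 6 libraries without BAFF, gave 2579 genes (22.1%) past the same threshold. Tested directly, BAFF 3mer and BAFF 60mer differed in 1689 genes (14.5%), of which 1002 (8.6%) were higher and 687 (5.9%) lower with BAFF 3mer. The connective tissue sum was 8.14 to 10.7 FPKM with BAFF 60mer and at most 0.057 FPKM without BAFF. BAFF 60mer and that difference cannot be told apart in the 2579 genes, nor fully in the 1689.

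**Figure D1:**
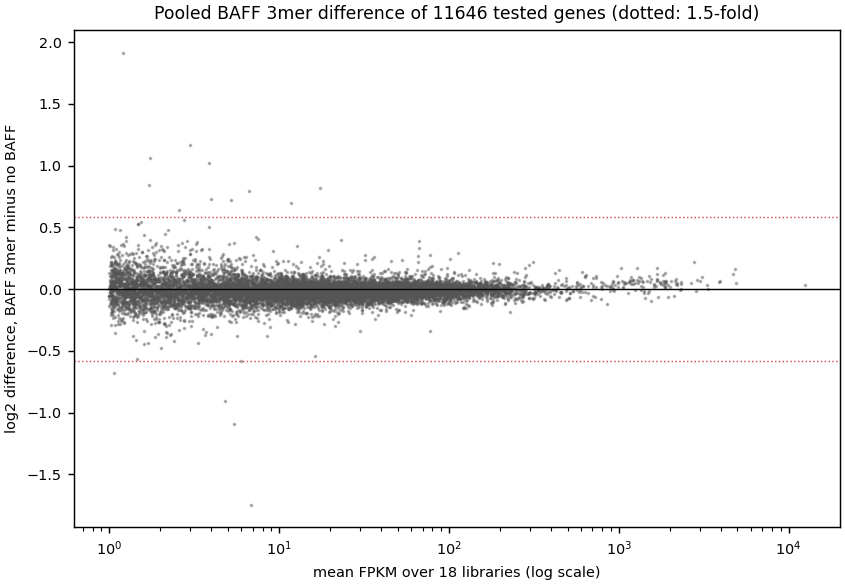
Log2 difference of BAFF 3mer minus no BAFF (y axis) against the mean FPKM over the 18 libraries (x axis, log scale), 1 point for each of 11646 tested genes. The dotted lines mark 1.5-fold; 15 genes lie beyond them, all below 20 FPKM.

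Across the 12 libraries, BAFF 3mer took about the share of the variation that a factor without effect would take. Of the summed squares on the log2 scale over all genes, 9.97% fell to BAFF 3mer, 8.64% to the pretreatment and 8.14% to their interaction, where 9.09% each would be reached with no effect. The spread between libraries of a group took 73.2%, against 72.7%.

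The genes of the NF-kB branch below BR3 did not differ detectably between BAFF 3mer and no BAFF. Nfkb2, which encodes p100, ranged from 105.8 to 130.7 FPKM with BAFF 3mer (median 115.8) and from 115.0 to 132.0 FPKM without BAFF (median 121.7). The ranges overlapped, with the lowest value among the libraries with BAFF 3mer, and the 6 libraries with BAFF 60mer, at 141.5 to 173.8 FPKM, all lay above both. The Nfkb2 difference of BAFF 3mer minus no BAFF was -0.06 ± 0.057 (SE), with a 95% interval of -0.19 to 0.06, and BAFF 3mer was 0.40 lower than BAFF 60mer (difference -0.40, adjusted p = 0.000192). Nfkbie, an inhibitor of NF-kB that NF-kB itself induces, lay at 73.5 to 78.9 FPKM with BAFF 3mer and 72.7 to 83.1 FPKM without BAFF. Its difference was -0.02 ± 0.029, against -0.38 ± 0.029 for BAFF 3mer minus BAFF 60mer (adjusted p = 2.43e-07).

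Promoters of Nfkb2, Nfkbie and Traf3 are shown as pathway members whose windows hold letters of an NF-kB site. They were picked for that match, and all 3 genes were lower with BAFF 3mer than with the 60mer while none passed for BAFF 3mer against no BAFF. Each window holds 250 bases before the start site and 50 after it, from RefSeq on GRCm38.p6, and capitals mark matches to GGGNNNTTCC, a form of the NF-kB site, on either strand (GGAANNNCCC on the other). The windows are Nfkb2 (first of 3 start sites) at chr19:46304487-46304786, Nfkbie at chr17:45555450-45555749 and Traf3 at chr12:111166120-111166419, all on the plus strand.
Nfkb2: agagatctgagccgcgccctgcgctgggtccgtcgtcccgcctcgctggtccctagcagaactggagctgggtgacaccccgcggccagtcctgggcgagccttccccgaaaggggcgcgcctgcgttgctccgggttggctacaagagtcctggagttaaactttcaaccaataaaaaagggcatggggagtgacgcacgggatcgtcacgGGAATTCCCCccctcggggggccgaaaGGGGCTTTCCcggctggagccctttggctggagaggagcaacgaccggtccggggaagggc
Nfkbie: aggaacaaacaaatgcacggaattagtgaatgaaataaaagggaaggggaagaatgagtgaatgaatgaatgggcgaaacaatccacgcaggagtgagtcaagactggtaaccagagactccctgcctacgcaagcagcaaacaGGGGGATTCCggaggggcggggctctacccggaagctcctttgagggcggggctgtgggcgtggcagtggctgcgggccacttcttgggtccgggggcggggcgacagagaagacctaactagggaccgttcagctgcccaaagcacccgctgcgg
Traf3: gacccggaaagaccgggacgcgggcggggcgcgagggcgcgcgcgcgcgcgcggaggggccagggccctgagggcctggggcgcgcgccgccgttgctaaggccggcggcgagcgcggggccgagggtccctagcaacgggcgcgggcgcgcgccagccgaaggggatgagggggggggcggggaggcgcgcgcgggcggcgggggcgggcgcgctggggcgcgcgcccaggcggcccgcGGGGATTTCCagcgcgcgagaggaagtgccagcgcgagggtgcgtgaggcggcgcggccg
The pattern occurred in 1825 of 32851 RefSeq promoter windows of 300 bases (5.56%). Of 19 panel genes looked up, 13 had a window in the table, and 7 of their 19 windows, from 5 genes, held a match; Nfkb2 has 3 windows, 2 of which overlap. Birc3, Traf1, Pim2, Cd44, Fcer2a and Cr2, also lower with BAFF 3mer than with the 60mer, had windows with no match. A match of letters is a description and not a site in use.

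Upstream and feedback members of the pathway gave the same picture. Birc3, an inhibitor of apoptosis that also takes part in the degradation of NIK, ranged from 321.3 to 340.3 FPKM with BAFF 3mer (median 328.3) and from 322.3 to 343.2 FPKM without BAFF (median 329.7), and its difference was -0.01 ± 0.025. All 6 libraries with BAFF 60mer had more, at 409.7 to 427.5 FPKM, and BAFF 3mer was lower than BAFF 60mer by a difference of -0.35 (adjusted p = 1.73e-07). The remaining differences of BAFF 3mer minus no BAFF were -0.01 for Traf3, 0.01 for Traf1, an adaptor of TNF receptors, -0.02 for Relb and -0.05 for Map3k14. Against BAFF 60mer, Traf3 (-0.23), Traf1 (-0.31) and Relb (-0.10) passed as lower with BAFF 3mer, and Map3k14 did not (-0.09, adjusted p = 0.159). Of the 10 genes listed for the noncanonical pathway, all tested, 0 passed for BAFF 3mer against no BAFF and the median difference was -0.02, beside -0.01 over all genes.

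Survival genes showed no passing change with BAFF 3mer. Bcl2l1, the gene of the anti-apoptotic protein Bcl-xL, averaged 21.0 ± 1.79 FPKM with BAFF 3mer and 20.7 ± 1.2 FPKM without BAFF (SD, n = 6 each). Pim2, a kinase that promotes B cell survival, averaged 57.4 ± 4.60 FPKM with BAFF 3mer and 58.9 ± 4.24 FPKM without BAFF. The difference was 0.02 ± 0.053 for Bcl2l1 and -0.04 ± 0.060 for Pim2. Against BAFF 60mer both were lower in the BAFF 3mer libraries, Bcl2l1 by a difference of -0.41 and Pim2 by one of -0.50. Mcl1, which mature B cells need to live, was at 323.4 ± 10.05 FPKM with BAFF 3mer and 329.8 ± 14.1 FPKM without BAFF, a difference of -0.03. Bcl2 had the lowest difference of the panel (-0.07), and Bcl2l11, the pro-apoptotic gene of the Bim protein, averaged 98.0 FPKM with BAFF 3mer and 98.1 FPKM without BAFF. Bcl2a1b, one of several near-identical Bcl2a1 copies whose reads the counting could have split, had the highest (0.21, interval -0.04 to 0.45), and its libraries overlapped at 4.80 to 7.42 FPKM with BAFF 3mer and 3.95 to 6.04 FPKM without BAFF. Its neighbour copy Bcl2a1a lay on the other side (-0.30, unadjusted p = 0.00985, adjusted p = 0.958).

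Receptors and surface molecules known to respond to BAFF stayed within their spread. Tnfrsf13b averaged 141.9 ± 4.00 FPKM with BAFF 3mer and 146.9 ± 6.09 FPKM without BAFF, and Tnfrsf13c averaged 105.3 ± 3.81 FPKM with BAFF 3mer and 103.8 ± 2 FPKM without BAFF. The third receptor, Tnfrsf17, was below the minimum of 1 FPKM and was not tested. Fcer2a, the gene of the low-affinity IgE receptor CD23, ranged from 164.7 to 175.0 FPKM with BAFF 3mer (median 169.5) and from 161.7 to 178.5 FPKM without BAFF (median 167.5), so the values with BAFF 3mer lay inside those without BAFF. Every library with BAFF 60mer was higher, at 209.6 to 241.8 FPKM. The Fcer2a difference was 0.01 ± 0.028 for BAFF 3mer minus no BAFF and -0.42 ± 0.028 for BAFF 3mer minus BAFF 60mer. Cr2, the complement receptor CD21, and Icosl, the ligand of the costimulatory receptor ICOS, differed from no BAFF by 0.02 and 0.01.

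The panel genes with the largest differences from BAFF 60mer lay, with BAFF 3mer, among the libraries without BAFF. Kynu, which encodes kynureninase of tryptophan breakdown, measured 25.5, 25.5 and 23.4 FPKM in Ab_3mer, 23.2, 23.1 and 25.6 FPKM in BRFc_3mer, 23.3, 23.7 and 24.8 FPKM in Ab and 24.7, 24.8 and 25.6 FPKM in BRFc. The 12 values interleaved, while the 6 libraries with BAFF 60mer held 43.2 to 46.8 FPKM. The Kynu difference of BAFF 3mer minus no BAFF was -0.01 ± 0.034 (interval -0.08 to 0.07) and that of BAFF 3mer minus BAFF 60mer was -0.88 ± 0.034 (adjusted p = 1e-10). S1pr1, the receptor that lets lymphocytes leave the spleen, ranged from 115.3 to 119.5 FPKM with BAFF 3mer and from 114.4 to 121.8 FPKM without BAFF, and from 76.6 to 83.7 FPKM with BAFF 60mer. Its difference from no BAFF was -0.01 ± 0.024, and it was 0.53 ± 0.024 higher with BAFF 3mer than with BAFF 60mer (adjusted p = 7.31e-10). Klf2, a transcription factor that drives S1pr1, averaged 67.5 ± 4.09 FPKM with BAFF 3mer and 69.2 ± 3.74 FPKM without BAFF, a difference of -0.04.

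Sdc1, the gene of the proteoglycan CD138, had a wider spread. It measured 39.0, 31.6 and 39.2 FPKM in Ab_3mer and 33.4, 34.6 and 35.2 FPKM in BRFc_3mer, against 34.3, 37.4 and 35.5 FPKM in Ab and 37.3, 36.0 and 33.4 FPKM in BRFc. The lowest and the highest value both came from Ab_3mer. Its difference was -0.01 ± 0.055, against 0.78 ± 0.055 for BAFF 3mer minus BAFF 60mer (adjusted p = 1.48e-07). Ccnd2, a cyclin of the G1 phase, differed from no BAFF by -0.03, the costimulatory receptor Cd40 by -0.05, the adhesion receptor Cd44 by 0.03 and Il2ra, the alpha chain of the interleukin-2 receptor, by 0.04. Against BAFF 60mer all 4 were lower in the BAFF 3mer libraries, with differences of -0.45 for Ccnd2, -0.43 for Cd40, -0.42 for Cd44 and -0.26 for Il2ra.

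Myc, a transcription factor of growth, had the smallest unadjusted p of the panel. It measured 249.0, 229 and 177 FPKM in Ab_3mer and 223, 199 and 170.2 FPKM in BRFc_3mer, against 201, 185 and 173 FPKM in Ab and 192, 165 and 161 FPKM in BRFc. The difference was 0.20 ± 0.102 (unadjusted p = 0.0634, adjusted p = 0.958), and that of BAFF 60mer minus no BAFF, with the same libraries without BAFF, was 0.19. The highest values came from the 2 Ab_3mer libraries that carried connective tissue transcripts. Without them Ab_3mer was replicate 3 alone, and the difference was 0.06. With all libraries, the Myc difference was 0.19 under mBaffR-mFc and 0.21 under control antibody. The BRFc_3mer libraries held 0 to 0.13 FPKM of those transcripts. Replicate 3 held the lowest value in each of the 6 groups, where replicate numbers follow only the order of deposition. With the first residual component as a term the difference stayed at 0.20 ± 0.054 with an adjusted p of 0.228, and over all alternatives the adjusted p ran from 0.228 to 1.

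**Figure D2:**
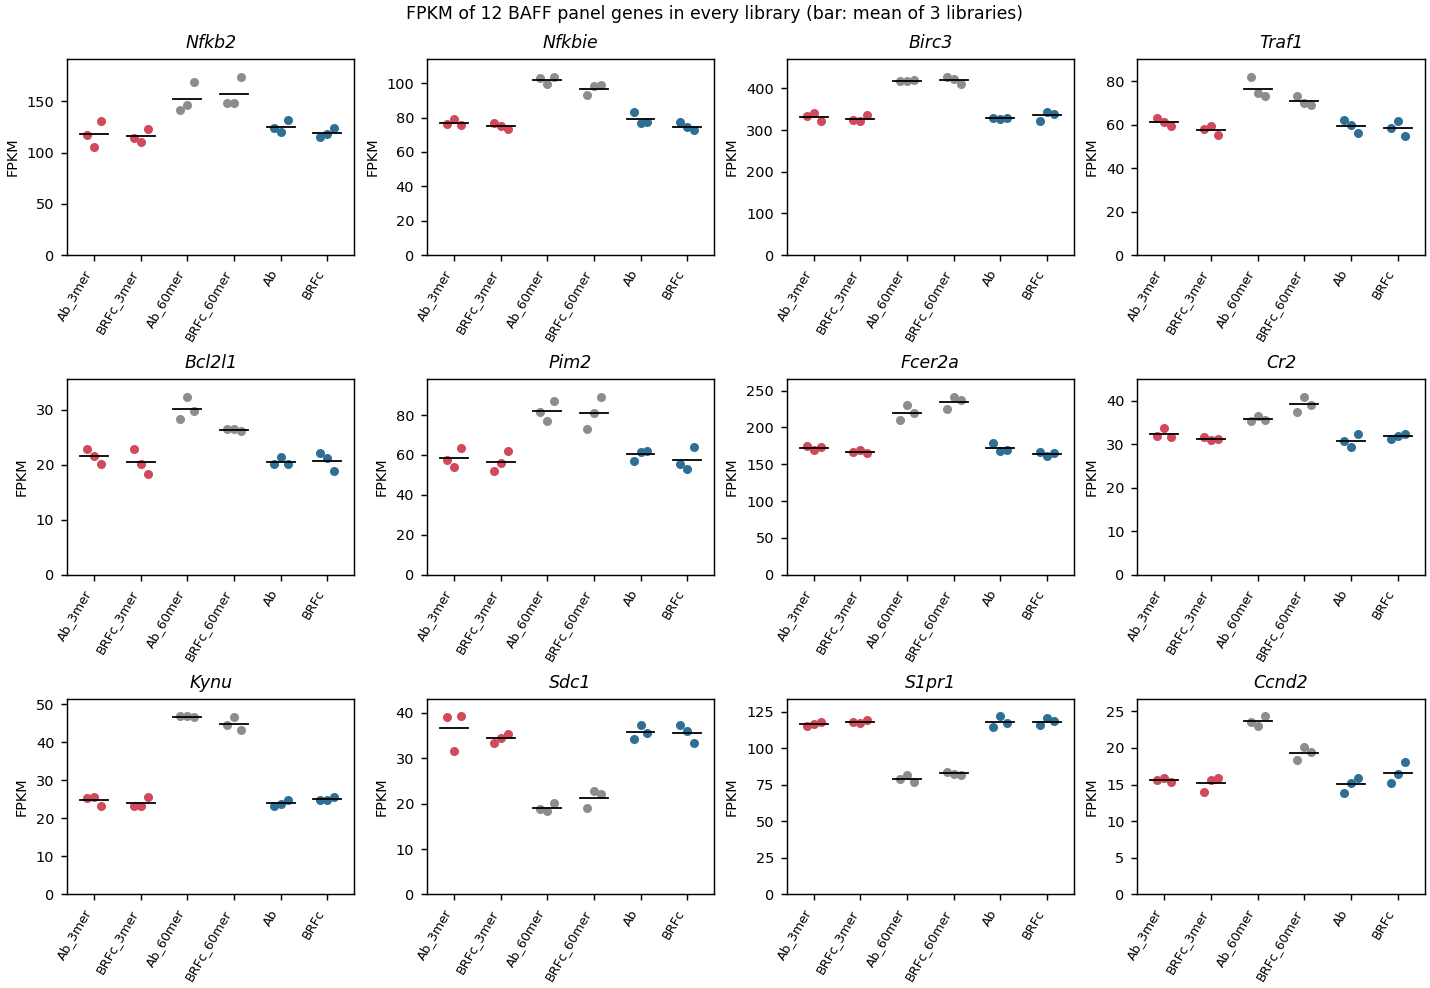
FPKM (y axes) of 12 panel genes in each of 18 libraries, with BAFF 3mer in red, BAFF 60mer in grey and no BAFF in blue, and a bar at the mean of 3 libraries. For Kynu the libraries with BAFF 3mer and without BAFF sit between 23.1 and 25.6 FPKM and those with BAFF 60mer between 43.2 and 46.8 FPKM.

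Over the panel of 28 genes with known or earlier seen responses to BAFF, 27 were tested and 0 passed for BAFF 3mer against no BAFF, beside 0% of all genes, and 0 reached an unadjusted p under 0.05. The differences ran from -0.07 to 0.21, and 10 were positive, beside 41.6% of all genes. All 27 intervals lay within 1.5-fold, beside 97.8% of all genes, and 25 within 1.25-fold, beside 87.9% of all genes. The intervals of Bcl2a1b and Myc reached beyond 1.25-fold. Between BAFF 3mer and BAFF 60mer 22 of the 27 differed, beside 14.5% of all genes. With BAFF 3mer 16 of them were lower and 6 higher, and the panel was in part chosen for its response to BAFF 60mer. Every library with BAFF 60mer carried connective tissue transcripts and most with BAFF 3mer did not, so the difference was also taken between the 2 carrying Ab_3mer libraries and the 3 of Ab_60mer. There 16 of 27 passed, among them Kynu (-0.85), Sdc1 (0.84), S1pr1 (0.55), Pim2 (-0.55), Nfkb2 (-0.44) and Fcer2a (-0.35). Relb, Bcl2, Bcl2l11, Cr2, Tnfrsf13b and Tnfrsf13c kept their sign and no longer passed. The share of all genes that passed in this smaller comparison is not given here, so 16 of 27 is a description.

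**Figure D3:**
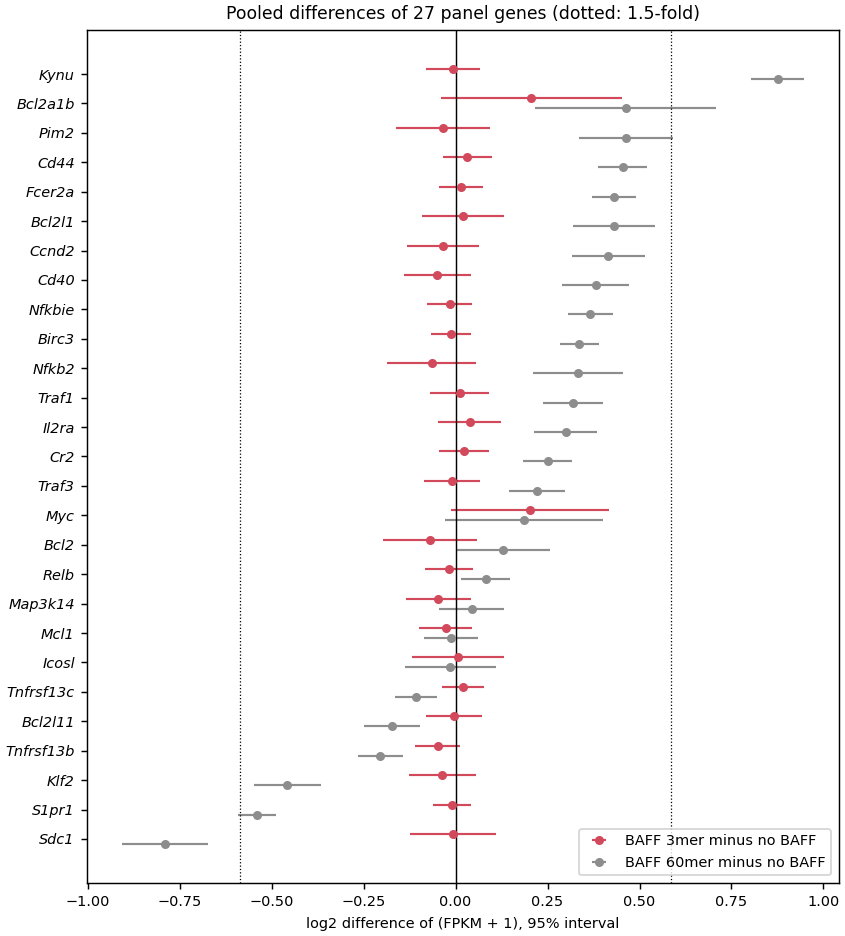
Log2 differences (x axis) of 27 panel genes (rows) with 95% confidence intervals, for BAFF 3mer minus no BAFF in red and BAFF 60mer minus no BAFF in grey; both use the same 6 libraries without BAFF. All red intervals lie between -0.20 and 0.45 and inside the dotted lines at 1.5-fold.

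Gene lists for pathways of B cells gave no passing member. The 27 lists name 423 genes, of which 420 were in the table and 404 were tested. None rose and none fell, 12 (2.97%) reached an unadjusted p under 0.05, beside 4.5% of all genes, and the median difference was -0.005. For 396 of the 404 (98.0%) the interval lay within 1.5-fold, beside 97.8% of all genes. The 8 others were Ccl3, Ccl4, Bbc3, Fos, Fosb, Nr4a2, Nr4a3 and Il10. Members of a list come from the same libraries and are not independent readings. List medians and shares of positive members are therefore descriptions.

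Immediate early genes, which are switched on within minutes of a stimulus, had the highest list median at 0.07, beside -0.01 over all genes, and 18 of 25 tested were positive, where 41.6% of all genes were. Egr2, a zinc finger factor induced by antigen receptor signals, averaged 70.0 ± 11.7 FPKM with BAFF 3mer and 57.7 ± 8.86 FPKM without BAFF, a difference of 0.27 ± 0.141. Fos, a part of the AP-1 factor, averaged 15.3 ± 3.43 FPKM with BAFF 3mer and 11.6 ± 1.71 FPKM without BAFF, a difference of 0.35 ± 0.191. The SD of both was larger with BAFF 3mer than without BAFF. Egr3 had the smallest unadjusted p of the list, at 0.0175 with an adjusted p of 0.958, and a difference of 0.12.

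Lists of NF-kB targets and of activation and costimulation each had a median of 0.03. Cd69, an early activation marker that also retains lymphocytes in tissue, averaged 56.1 ± 5.16 FPKM with BAFF 3mer and 47.5 ± 4.05 FPKM without BAFF. Its difference of 0.23 ± 0.084 had an unadjusted p of 0.013 and an adjusted p of 0.958, and it was 0.27 under mBaffR-mFc and 0.19 under control antibody. Nfkbid, an atypical IkB protein, differed by 0.17 and Icam1, an adhesion molecule, by 0.10. Among cytokines, Il10, which restrains inflammation, averaged 2.29 ± 0.348 FPKM with BAFF 3mer and 1.55 ± 0.393 FPKM without BAFF. The Il10 difference was 0.37 ± 0.117 (unadjusted p = 0.00552, adjusted p = 0.958), with 0.63 under mBaffR-mFc and 0.12 under control antibody. Ebi3, a subunit of interleukin-27 and interleukin-35, differed by 0.25, and the chemokines Ccl3 and Ccl4 by 0.27 each.

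The lowest median was that of the type I interferon response, at -0.06 with 3 of 24 tested genes positive, again beside 41.6% of all genes. Mx1, a GTPase with antiviral activity, averaged 3.63 ± 0.599 FPKM with BAFF 3mer and 4.37 ± 0.825 FPKM without BAFF, a difference of -0.21 ± 0.112 (adjusted p = 0.958). Irf7, a transcription factor of the interferon response, differed by -0.10, and Isg15, a ubiquitin-like modifier, by 0.03 with opposite signs under mBaffR-mFc (0.27) and control antibody (-0.22). Pro-apoptotic genes and tryptophan breakdown both had medians of -0.04. Of 14 tested pro-apoptotic genes 1 was positive, and Bbc3, the gene of the BH3 protein Puma, had the widest interval (-0.76 to 0.15). The remaining lists had medians between -0.03 and 0.02. In the MHC class II list H2-Aa and H2-Eb1, chains of the molecules that present peptides to helper T cells, differed by 0.07 each, and in the list of S phase and mitosis Mcm2, a part of the replicative helicase, differed by -0.08.

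**Figure D4:**
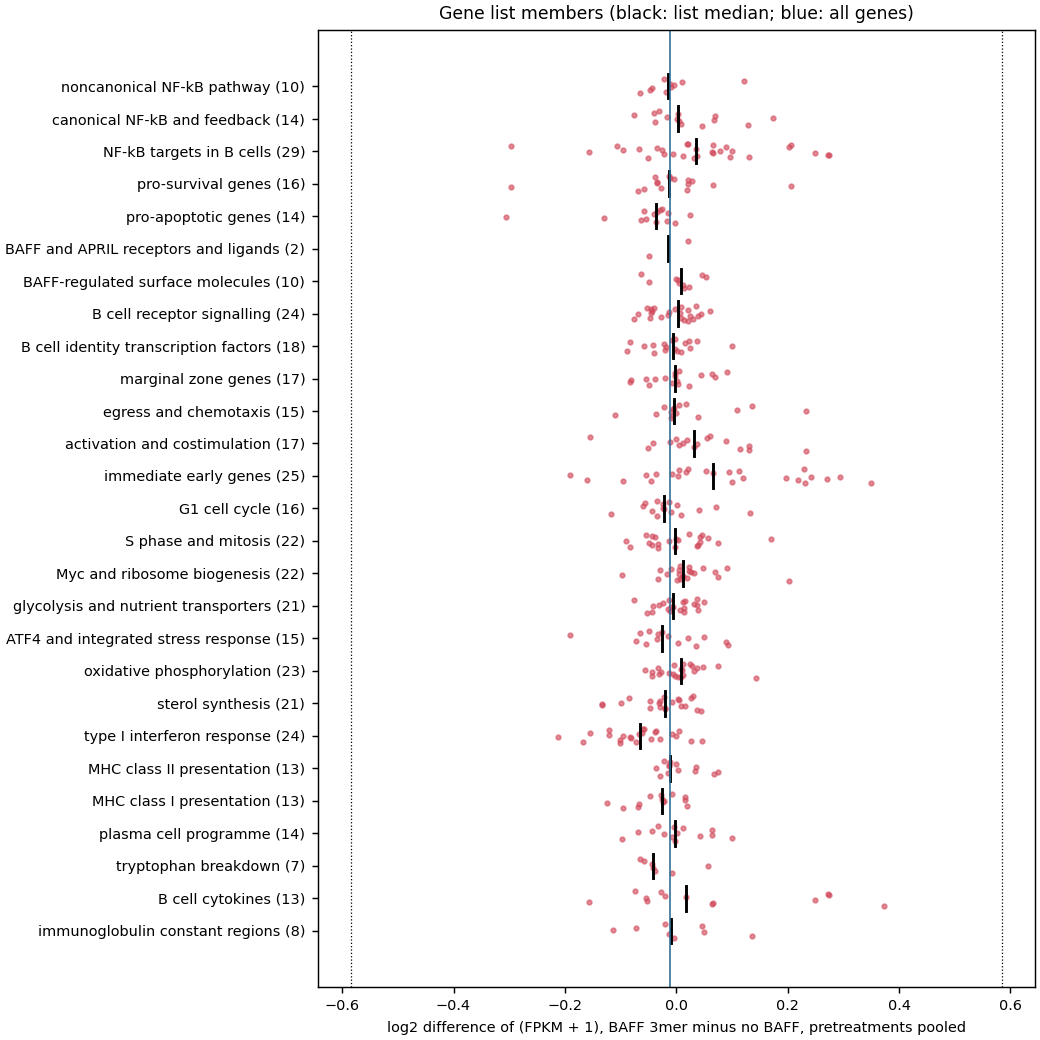
Log2 difference of BAFF 3mer minus no BAFF (x axis) for each tested member of 27 gene lists (rows, number tested in brackets), with a black bar at the list median, a blue line at the median of all 11646 genes and dotted lines at 1.5-fold. List medians lie between -0.06 and 0.07, and no point passes the dotted lines.

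The pretreatments were then taken apart, to ask whether mBaffR-mFc changed the response to BAFF 3mer. Under mBaffR-mFc 0 of 11646 genes passed (0%; 388 or 3.33% at an unadjusted p under 0.05), and under control antibody 0 passed (0%; 632 or 5.43%). The difference between both effects, the interaction, gave 0 genes as well (0%; 560 or 4.81%), with a smallest adjusted p of 0.622 in limma, and voom gave 0 in all of these. The BAFF 3mer differences under mBaffR-mFc and under control antibody come from libraries that share none. Across the 11646 genes their Pearson's r was 0.099 and their Spearman's rho 0.04, and 50.7% had the same sign. For BAFF 60mer minus no BAFF, also without shared libraries, r was 0.58, rho 0.60 and the same-sign share 72.6%. Under both pretreatments the libraries with BAFF 60mer carried connective tissue transcripts and those without BAFF did not. The part of this in the BAFF 60mer values was not tested. Genes are not independent replicates, and these values are descriptions.

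**Figure D5:**
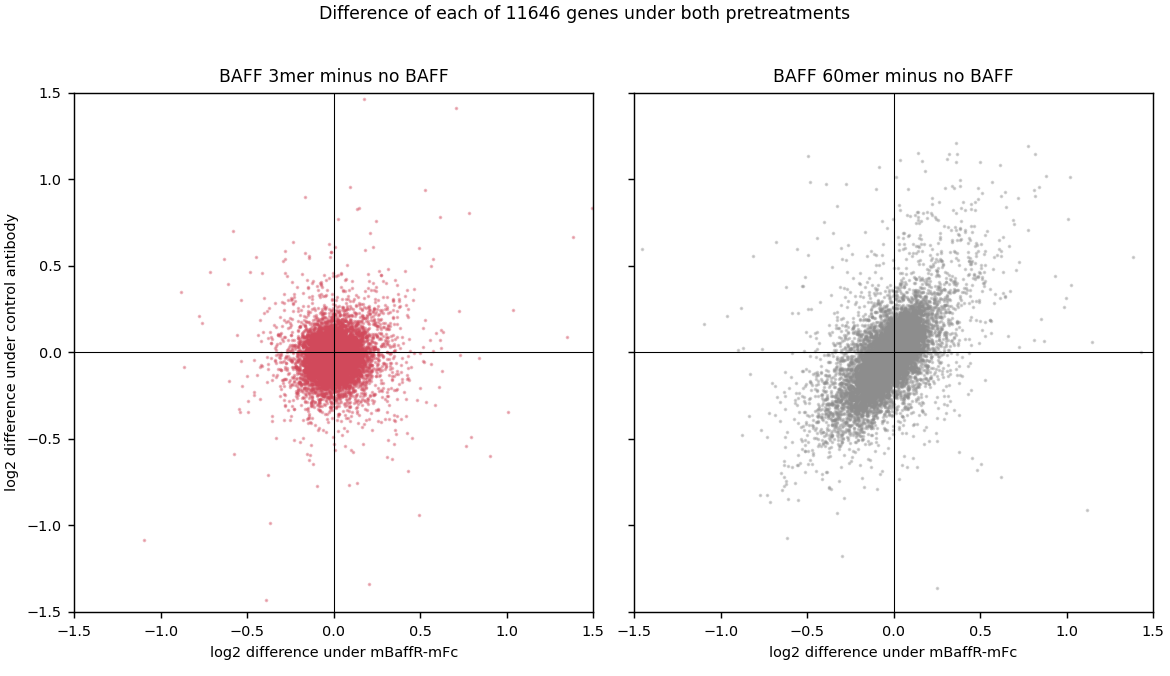
Log2 difference under control antibody (y axis) against that under mBaffR-mFc (x axis) for each of 11646 genes, for BAFF 3mer minus no BAFF on the left and BAFF 60mer minus no BAFF on the right. The BAFF 3mer points form a round cloud (r 0.099) and the BAFF 60mer points an upward slope (r 0.58); 3 and 6 genes lie outside the axes.

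The smallest p of the interaction belonged to Stambpl1, Igkv12-44, Apobec2 and Wdr73, none of which passed. Igkv12-44, a variable segment of the kappa light chain, measured 89.2, 89.3 and 94.4 FPKM in BRFc_3mer against 42.5, 46.8 and 44.9 FPKM in BRFc. Under control antibody it measured 46.1, 49.4 and 50.2 FPKM in Ab_3mer against 43.1, 81.7 and 67.0 FPKM in Ab. The libraries separated under mBaffR-mFc and overlapped under control antibody. Picking genes by the smallest p of the interaction favours such separation, so it is a description. The Igkv12-44 difference was 1.01 under mBaffR-mFc (adjusted p = 0.953), and the interaction was 1.35 (adjusted p = 0.622). Variable segments resemble one another, so the counting could have split their reads.

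Stambpl1, a deubiquitinase, measured 17.97, 18.1 and 19.9 FPKM in BRFc_3mer against 16.9, 16.997 and 17.02 FPKM in BRFc, and 16.8, 16.6 and 16.97 FPKM in Ab_3mer against 19.0, 21.2 and 20.2 FPKM in Ab. Each pair of groups separated, in opposite directions, which picking by the smallest p of the interaction favours. The difference was 0.13 under mBaffR-mFc and -0.25 under control antibody, an interaction of 0.37 ± 0.073 (adjusted p = 0.622). Apobec2, a member of the cytidine deaminase family, had an interaction of -0.72 at levels of 1.15 to 2.54 FPKM, and Wdr73 one of 0.26. Under mBaffR-mFc Zfyve21 (0.44), Cklf (0.32) and Minpp1 (-0.20) followed Igkv12-44, each with an adjusted p of 0.999. Under control antibody the smallest p of genes other than Ighd2-6 belonged to Coq2, an enzyme of ubiquinone synthesis (-0.20), Stambpl1 and Jmjd6 (-0.21), with adjusted p of 0.436, 0.436 and 0.488.

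The genes that answered BAFF 60mer under one pretreatment were read for BAFF 3mer under the other, so that no library entered both differences. The p-values of both share a residual variance per gene from all 18 libraries. A call for BAFF 60mer and a p for BAFF 3mer are therefore not independent. Of 587 genes that had risen with BAFF 60mer under control antibody (5.04% of all), 35.4% were positive for BAFF 3mer under mBaffR-mFc, beside 43.9% of all genes, with a median of -0.02. Of 1041 genes that had fallen (8.94%), 60.6% were negative, beside 56.1% of all genes, also with a median of -0.02. Where they were called for BAFF 60mer the risen genes had a median of 0.26 and the fallen ones of -0.30. None passed for BAFF 3mer.

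In the other direction the shares were higher. Of 170 genes that had risen with BAFF 60mer under mBaffR-mFc (1.46%), 65.9% were positive for BAFF 3mer under control antibody, beside 43.0% of all genes, and their median was 0.02 where that for BAFF 60mer had been 0.32. Of 393 genes that had fallen (3.37%), 70.5% were negative, beside 57.0% of all genes, with medians of -0.04 for BAFF 3mer and -0.32 for BAFF 60mer. Of these 393, 49 (12.5%) reached an unadjusted p under 0.05 in that direction, beside 4.11% of all genes, and 0 passed. Being called for BAFF 60mer favours genes with a small residual variance, which also entered these p-values, so this share is not an independent reading. By library, the median difference of the 563 genes (4.83% of all), signed by their direction with BAFF 60mer, was 0.05 and 0.04 in the 2 carrying Ab_3mer libraries and -0.002 in the third, which did not carry connective tissue transcripts. The part of those transcripts in this was not tested. The same measure for the 1628 genes (14%) called under control antibody was 0.05, -0.003 and -0.04 in the 3 libraries of BRFc_3mer, which held 0 to 0.13 FPKM of them. The first residual component, the main axis of spread between libraries within groups, took 23.1% of that spread. Its weights were 0.06, 0.25 and -0.31 in Ab_3mer and 0.25, 0.05 and -0.30 in BRFc_3mer. In every group replicate 3 had the lowest weight. The part of this component in the medians was not tested.

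Without a passing gene, those with the smallest p of the pooled comparison are named for their values. Il2rb, the beta chain of the interleukin-2 receptor, ranged from 29.1 to 30.8 FPKM with BAFF 3mer (median 30.2) and from 31.3 to 35.4 FPKM without BAFF (median 34.9). The 6 libraries with BAFF 3mer all lay below the 6 without BAFF. The difference was -0.17 ± 0.038 (unadjusted p = 0.000365, adjusted p = 0.958), with -0.15 under mBaffR-mFc and -0.19 under control antibody. Il2rb is also a marker of NK cells, whose 6 markers summed to a median of 129 FPKM with BAFF 3mer and 139 FPKM without BAFF. Of the other 5, Klrd1 differed by -0.10, Gzma by -0.05, Klre1 by -0.03, Klrb1c by -0.02 and Ncr1 by 0.04, none of which passed, and their part in the Il2rb values was not tested.

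Ap4s1, a subunit of an adaptor complex of vesicle transport, averaged 15.9 ± 0.912 FPKM with BAFF 3mer and 18.04 ± 0.929 FPKM without BAFF, and its libraries overlapped slightly (difference -0.17). Trbj1-2, a joining segment of the T cell receptor beta chain, measured 1.15 to 5.46 FPKM with BAFF 3mer and 2.24 to 11.4 FPKM without BAFF. This was one of the 15 genes beyond 1.5-fold, at -1.09 ± 0.288, and 8 markers of T cells summed to similar values in both conditions. The lowest and the highest of the 15 were the D segments Ighd5-3 (-1.74) and Ighd2-6 (1.91). The fragments behind the Trbj1-2 values are not given here, and whether they were few, as for Ighd2-6, was not tested. Gng4, a gamma subunit of G proteins, differed by -0.22, Acads, an enzyme of fatty acid oxidation, by -0.23, Fbxo48 by -0.21, Tmem101 by -0.18, Coq2 by -0.11 and Igkv17-127, another kappa variable segment, by 0.24. All had an adjusted p of 0.958.

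In 17 genes (0.146%) the 6 libraries with BAFF 3mer did not overlap the 6 without BAFF, 4 higher (0.0343%) and 13 lower (0.112%), and none passed. The 4 higher were Smap1 (0.13), an Arf GTPase-activating protein, Zfp873 (0.19), Tgfbr1 (0.04), a TGF-beta receptor, and the mitochondrial gene mt-Nd4 (0.14), which encodes a subunit of complex I. Tgfbr1 had the narrowest separation, at 52.9 to 54.8 FPKM with BAFF 3mer and 51.8 to 52.8 FPKM without BAFF. mt-Nd4 lay at 601.5 to 650.7 FPKM with BAFF 3mer and 540.1 to 592.5 FPKM without BAFF, with a difference whose interval spanned 0 (-0.01 to 0.28). Of the lower genes, besides Il2rb, those named by rule were Tmem101, Zfp653 (-0.16), Thop1 (-0.14), a peptidase, Arglu1 (-0.13), a splicing factor, and Bet1l (-0.13), a SNARE protein of the Golgi.

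The smallest p of all, that of Ighd2-6, rested on 7 fragments. Ighd2-6 is a diversity segment of the immunoglobulin heavy chain, shown because its length of 17 bases turns 1 fragment into about 3 FPKM. It lies at chr12:113461369-113461385 on the minus strand (GRCm38, GENCODE M21), inside the heavy chain locus.
Ighd2-6: cctactatagtaactac
It measured 3.08, 9.31 and 2.71 FPKM in Ab_3mer and 0, 3.24 and 3.29 FPKM in BRFc_3mer, and was at 0 in the 6 libraries without BAFF and the 6 with BAFF 60mer. In fragments this was 1, 3 and 1 in Ab_3mer and 0, 1 and 1 in BRFc_3mer. The difference of 1.91 ± 0.300 (adjusted p = 0.0904) is on the log2(FPKM + 1) scale, and since all libraries without BAFF are at 0, no fold is given.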

How the data were processed

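Total RNA of splenic B cells was sequenced by a company that determined FPKM for the authors, per the labels' protocols. The deposited table held FPKM for 35275 gene IDs, of which 34490 matched a symbol in GENCODE M21. Aligner, counting tool, build, strand setting and scaling between libraries are not given in the sources used here. All 18 columns matched a sample by name.

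Values were taken as log2(FPKM + 1), which understates changes of low genes. Genes averaging 1 FPKM or more over 18 libraries, 11646 in all, were fitted in limma 3.58.1 (R 4.3.3) with 6 group means, a trend in the variance and 12 residual degrees of freedom. Contrasts averaged both pretreatments; p-values were adjusted by Benjamini-Hochberg over all tested genes, with a threshold of 0.05. The ± after a difference is its standard error. Library totals came from the smallest FPKM steps; 91.4% to 92.8% of low values were then whole to within 0.1. Totals ran from 12.2 to 25.4 M fragments over all 18 libraries.

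The members, the panel, the lists and the tests were chosen with earlier results of these data known. Named genes are the panel, the 10 smallest p of the pooled comparison, up to 6 separated genes each way, 4 per further comparison and up to 4 per list, with at least 2 FPKM and no provisional symbol outside the lists and panel. Named outside this rule, after their values were seen, are the remaining NK cell markers, Fos, Irf7, Isg15, and genes that passed under an alternative. Steps were tested on simulated data. Figures used matplotlib 3.10.9.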

Additional observations from a re-analysis of the deposited data

Results flagged for a closer look

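Of 105 groups of 6 libraries, 4 held a library far from the other 5, where chance gives about 1 in 20. The measure is the gap to the nearest library divided by the range. In Smap1 (0.808), BRFc_3mer replicate 2 was highest at 20.8 FPKM, with the next at 19.4 FPKM. In Ccnd2 (0.715), BRFc_3mer replicate 1 was lowest at 13.9 FPKM, with the next at 15.3 FPKM. In Cr2 (0.684), Ab_3mer replicate 2, which carried connective tissue transcripts, was highest at 33.8 FPKM, with the next at 31.9 FPKM. In Ighd2-6 (0.646), the same library was highest at 9.31 FPKM, or 3 fragments, with the next at 3.29 FPKM.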

How the results depend on the processing

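Counts of passing genes were 0 with a pseudocount of 0.1, median-of-ratios rescaling, a minimum of 5 FPKM on average, the 12 libraries alone, the first residual component as a term and voom, and for the pooled comparison also without the interaction or the pretreatment in the model. No filter gave 1 gene (Gm28900, 1 fragment in each Ab_3mer library) in the pooled, interaction and control antibody comparisons. Quality weights gave 1 (Ighd2-6, adjusted p = 0.0247) in the pooled comparison. Without Ab_3mer replicates 1 and 2 the pooled, interaction and control antibody comparisons gave 1 gene, Gm47283, at 155.7 FPKM in Ab_3mer replicate 3. Leaving out single libraries gave 0 to 2 genes in the pooled comparison (2, Ighd2-6 and Col3a1, without Ab_3mer replicate 3; 1, Ighd2-6, without BRFc_3mer replicate 1) and 0 to 1 in the interaction, under mBaffR-mFc and under control antibody, where the genes were Igkv12-44, Igkv17-127, Ighd2-6 and Col3a1, without Ab replicate 1, Ab_3mer replicate 3 or BRFc_3mer replicate 1. Col3a1, one of the connective tissue genes above, measured 3.74, 5.34 and 0.026 FPKM in Ab_3mer and 0 in all libraries without BAFF. The causes were not tested.

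Of 567 panel values of BAFF 3mer against no BAFF under alternatives, 0 passed, 42 had the opposite sign, and all lay between -0.11 and 0.30. Against BAFF 60mer 75 of 81 kept direction and call, and 6 were weaker among carrying libraries. Voom and that comparison were chosen after seeing the data, with Ab_3mer replicate 3 left out of the fit. No paired analysis was possible because the labels give no replicate numbers, and the order of deposition pairs no libraries.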
